A study of Mus musculus with 6 samples.

Results

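Histone methylation enzymes were measured as transcripts in mouse oocytes that lacked the demethylase LSD1 and in oocytes that did not. The genes were chosen by symbol: the JmjC lysine demethylases Kdm2 to Kdm8, the SET domain methyltransferases and their core subunits, the protein arginine methyltransferases, and the PRDM, SMYD and remaining JmjC families. Of 23284 gene symbols in the count files, 79 matched. A count in at least 1 sample was found for 78 of them, and 71 passed the filter on low counts and were tested. Because that filter keeps a gene that is abundant in either genotype, the 71 are the expressed members and not the whole set. The rule used names and no measured values.

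Lysine methyltransferases add methyl groups to histone tails and JmjC proteins remove them with iron and 2-oxoglutarate, whereas LSD1 (Kdm1a in the files) removes them with a flavin cofactor and cannot act on a trimethylated lysine. Methylation of H3K4 marks promoters, that of H3K9 and H3K27 goes with silent chromatin, and that of H3K36 lies over transcribed gene bodies. In growing mouse oocytes H3K36 methylation by SETD2 guides DNA methylation, the H3K4 mark spreads into broad domains with the help of CXXC1, and the PRC2 complex lays down H3K27 methylation that the embryo inherits.

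RNA came from fully grown germinal vesicle oocytes, which rest in meiotic prophase, in an Lsd1 KO and a Control group of 3 biological replicates each. All females were of mixed C57BL/6 and 129 strain, 4 to 6 weeks old, and had received 5 IU of pregnant mare serum gonadotrophin 48 hours earlier; each sample pooled 100 oocytes. The Lsd1 allele, any Cre driver and the genotype details of the Control females were not stated in the sources used. Levels are CPM, counts scaled by library size and TMM, fold changes are Lsd1 KO over Control on the log2 scale ± SE, and adjusted p is from edgeR's quasi-likelihood test over 12935 genes with a threshold of 0.05. In pooled oocytes fewer transcribing cells and less RNA per cell cannot be told apart.

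The libraries held 10735422 to 13035045 counts. Kdm1a, the targeted gene, stood at 3.76, 2.79 and 3.23 CPM in Lsd1 KO, against 73.8, 72.4 and 44.4 CPM in Control (-4.28 ± 0.27 on the log2 scale, edgeR adjusted p = 4.58e-06). All 11 oocyte markers were detected, summing to 33343 to 37730 CPM in Lsd1 KO and 23015 to 26900 CPM in Control; 2 were higher, 9 did not pass, and 7 had a log2 fold change below 0. The higher sum was mostly that of Gdf9, at 14460 to 16924 CPM in Lsd1 KO against 5560 to 7005 CPM in Control. Of 12 granulosa and cumulus markers, 4 were higher and 1 lower, and their sum was 427 to 494 CPM in Lsd1 KO against 132 to 161 CPM in Control. Of that sum the aromatase gene Cyp19a1 took 239 to 404 CPM in Lsd1 KO against 28.5 to 49.2 CPM in Control, and Nr5a2, the marker that was lower, took 25.7 to 33.2 CPM against 67.4 to 72.9 CPM. The 8 theca and stroma markers summed to 9.37 to 14.2 CPM in Lsd1 KO and 2.03 to 3.25 CPM in Control. The 10 immune and blood markers summed to 136, 8.47 and 107 CPM in Lsd1 KO replicates 1 to 3 and to 30.1, 4.29 and 40.6 CPM in Control replicates 1 to 3, with both globin genes at 0. Among the 2 tested theca and stroma markers Dcn was higher (4.14 on the log2 scale, edgeR adjusted p = 0.000192) and none was lower. Among the 7 tested immune and blood markers Cd68 was higher (1.86, edgeR adjusted p = 0.0281) and none was lower. The part of these other cells in the results on methylation enzymes was not tested. Control replicate 3 stood apart on the second principal component and Lsd1 KO replicate 2 on the third.

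Among the 71 tested methylation genes, 6 were higher and 12 lower in Lsd1 KO, and 53 did not pass. These 18 calls are 25.4% of the 71, where 21.3% of all genes tested were called, so the share as a whole lay near the background. By direction, 8.45% of the methylation genes were higher against 11% of all genes, and 16.9% were lower against 10.3%. The median log2 fold change was -0.31 over the 71 genes and -0.01 over all genes tested, and 49 of the 71 had a value below 0. The groups did not overlap for 35 of the 71 (49.3%), against 38.7% of all genes. The calls were 8 (3 higher and 5 lower) without Lsd1 KO replicate 1 and 9 (3 higher and 6 lower) without Lsd1 KO replicate 3, with 7 lower when Lsd1 KO replicate 2 was left out and 8 when Control replicate 2 was. Without Control replicate 1 the number higher was 4 and the number lower 12. Without Control replicate 3, 9 were higher and 9 lower. All genes gave 1421 higher and 1329 lower with all 6 libraries. Of 13249 tested without Lsd1 KO replicate 1, 950 were higher and 638 lower. Of 13238 tested without Lsd1 KO replicate 3, 1018 were higher and 727 lower. The numbers were 1370 and 1204 without Lsd1 KO replicate 2. They were 932 and 994, 985 and 781, and 1466 and 1346 without Control replicates 1, 2 and 3.

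The falls were those of Kdm3b, Setd5, Ash1l, Kdm3a, Prdm6, Setd8, Setd2, Mll2, Cxxc1, Kdm5c, Prdm4 and Setd1a. The rises were those of Prdm9, Prdm1, Kdm5b, Ash2l, Prmt2 and Kdm4a. Prdm9 passed the filter on low counts only through its Lsd1 KO libraries. For 7 of these 18 genes (Kdm3b, Setd5, Ash1l, Setd2, Prdm6, Prdm1 and Ash2l) the call held with any single library left out and under 10 other ways of scaling, filtering or testing. The other 11 lost it in at least 1 of the 6 fits with a library left out, as given with each gene.

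**Figure D1:**
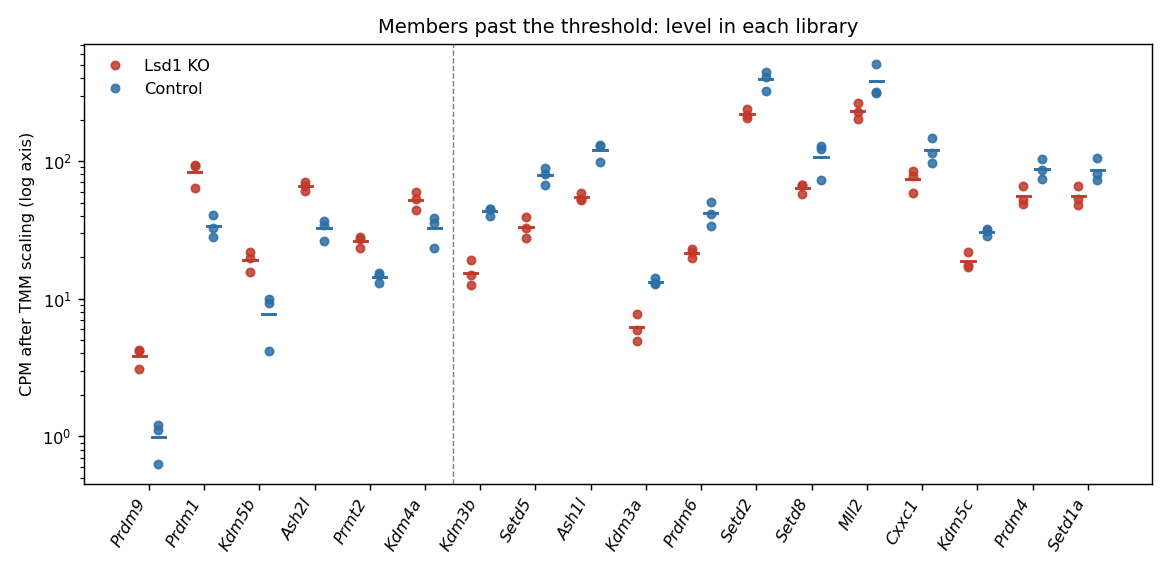
Level of the 18 methylation genes past the threshold in each library, in CPM after TMM scaling on a log axis; points are the 3 libraries of each genotype, bars their means, Lsd1 KO left of Control, rises left of the dashed line and falls right of it. In each of the 18 genes the Lsd1 KO libraries do not overlap the Control libraries. These genes were called from the same counts, so the separation, here and gene by gene, is no separate evidence.

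**Figure D2:**
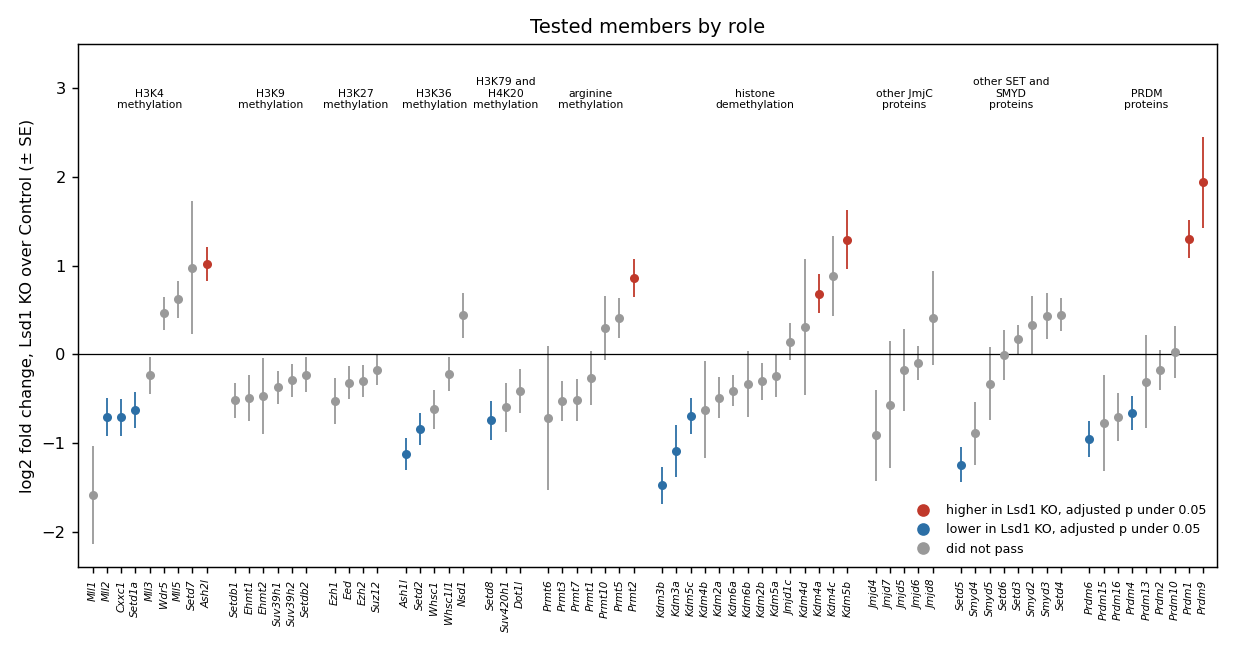
Log2 fold change (Lsd1 KO over Control) ± SE of 70 of the 71 tested genes, grouped by role; colour marks the call by edgeR's adjusted p. The H3K9 and H3K27 groups hold no call, with each of their 10 genes between -0.53 and -0.17. Of all genes tested 21.3% were called, so groups this small can hold none.

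Promoter sequences are shown for the 2 largest rises and the 2 largest falls among called genes whose RefSeq promoter matched mm9 once and lay within 200 bases of the annotated start. They run from 250 bases before to 50 after the start, 5′ to 3′ on the gene's strand; capitals mark the GC box GGGCGG and the CCAAT box CCAAT on either strand. The sequences are RefSeq's, from its GRCm38.p6 table, and the mm9 positions are identical matches at chr17:15701269-15701568 for Prdm9 (minus strand), chr1:136456505-136456804 for Kdm5b (plus), chr6:71582862-71583161 for Kdm3a (minus) and chr9:110434851-110435150 for Setd2 (plus).
Prdm9: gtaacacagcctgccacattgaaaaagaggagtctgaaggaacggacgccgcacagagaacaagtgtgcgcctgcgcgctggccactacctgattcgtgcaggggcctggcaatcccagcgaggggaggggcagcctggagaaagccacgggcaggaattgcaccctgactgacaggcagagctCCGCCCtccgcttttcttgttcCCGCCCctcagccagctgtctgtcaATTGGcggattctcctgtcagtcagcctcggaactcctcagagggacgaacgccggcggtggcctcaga
Kdm5b: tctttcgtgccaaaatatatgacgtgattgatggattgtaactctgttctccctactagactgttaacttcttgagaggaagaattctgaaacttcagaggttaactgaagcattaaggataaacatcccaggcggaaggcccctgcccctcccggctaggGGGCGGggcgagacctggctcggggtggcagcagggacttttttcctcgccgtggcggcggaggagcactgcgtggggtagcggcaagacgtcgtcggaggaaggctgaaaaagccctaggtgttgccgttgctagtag
Kdm3a: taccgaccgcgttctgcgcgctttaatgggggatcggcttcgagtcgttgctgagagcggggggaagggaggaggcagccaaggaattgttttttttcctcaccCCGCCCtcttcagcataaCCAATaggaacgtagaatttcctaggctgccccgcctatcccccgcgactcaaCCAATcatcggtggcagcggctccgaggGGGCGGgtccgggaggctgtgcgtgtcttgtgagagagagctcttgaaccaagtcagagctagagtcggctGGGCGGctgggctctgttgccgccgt
Setd2: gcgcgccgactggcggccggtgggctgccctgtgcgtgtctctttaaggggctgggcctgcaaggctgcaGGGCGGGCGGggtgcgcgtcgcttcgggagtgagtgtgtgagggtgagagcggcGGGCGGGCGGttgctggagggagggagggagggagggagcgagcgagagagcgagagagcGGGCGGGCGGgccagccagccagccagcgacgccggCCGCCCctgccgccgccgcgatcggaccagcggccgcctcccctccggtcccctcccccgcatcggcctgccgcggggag

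Prdm9 and Kdm5b, which rose, held 2 and 1 GC boxes, whereas Kdm3a and Setd2, which fell, held 3 and 7, those of Setd2 partly overlapping. CpG dinucleotides numbered 18, 17, 24 and 38 in the order printed. A GC box was found in 3 of 4 usable promoters of genes that rose and in 5 of 5 of genes that fell, against 61.9% of 9240 promoters of genes tested and 35.9% of 27025 promoters in the table. The CCAAT box was found in 3 of 4 and 3 of 5, against 39.1% of the promoters of genes tested. TATAAA was found in 1 of 4 and 0 of 5, and the E-box CACGTG in none of the 9, against 7.46% and 10% of the promoters of genes tested. Among the 51 members with a usable promoter, 68.6% held a GC box, 52.9% a CCAAT box, 3.92% TATAAA and 9.80% CACGTG. All these matches are of letters only.

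H3K4 methyltransferases are the writers of the mark that LSD1 removes. The KMT2 and SETD1 enzymes work in COMPASS complexes around a shared core of WDR5, RBBP5, ASH2L and DPY30, and CXXC1 ties the SETD1 complexes to unmethylated CpG islands. Of 9 tested members 3 were lower, 1 was higher and 5 did not pass (44.4% called, against 21.3% of all genes tested). The shares of calls by role, here and below, rest on few genes and were not tested. Ash2l was at 70.9, 60.5 and 66.0 CPM in Lsd1 KO, against 26.2, 34.6 and 36.8 CPM in Control, a rise of 1.02 ± 0.19 (edgeR adjusted p = 0.00355). The lowest Lsd1 KO library was thus well above the highest Control library. Ash2l spans chromosome 8, 26926663 to 26958166, minus strand (mm9).

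The falls were in Mll2, Setd1a and Cxxc1. Mll2, which at its position on chromosome 15 is the gene now called Kmt2d, an H3K4 monomethyltransferase of enhancers, was at 266, 227 and 203 CPM in Lsd1 KO and 311, 319 and 509 CPM in Control (-0.71 ± 0.22, edgeR adjusted p = 0.0342). Control replicate 3 was far above the other two Control libraries, and without it the adjusted p was 0.0911; the call was also lost without any of the 3 Lsd1 KO libraries (adjusted p 0.0638 to 0.135) and after correcting each library for exon length and GC (0.0892). Setd1a, which trimethylates H3K4, was at 65.9, 53.1 and 48.4 CPM in Lsd1 KO against 72.9, 81.0 and 105 CPM in Control (-0.63 ± 0.20, adjusted p = 0.0421). Among the 6 such fits it kept the call only without Control replicate 1 (adjusted p up to 0.168), and it was lost after the length and GC correction (0.0596). In the annotation 51.8% of its exon bases are shared with Hsd3b7 on the same strand, so its count is uncertain; Hsd3b7 was at 41.7 ± 6.89 CPM in Lsd1 KO against 37.2 ± 4.61 CPM in Control (SD, n = 3 each). Cxxc1 was at 84.5, 58.4 and 77.8 CPM in Lsd1 KO and 115, 97.8 and 148 CPM in Control (-0.71 ± 0.21, adjusted p = 0.0291), and it kept the call only without Control replicate 2 (up to 0.0853). The Cxxc1 groups did not overlap, although the gap between the nearest libraries was small.

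Mll3 (now Kmt2c), another enhancer monomethyltransferase, did not pass, at 814 ± 117 CPM in Lsd1 KO against 961 ± 209 CPM in Control (-0.24 ± 0.20, edgeR adjusted p = 0.435). Wdr5, the scaffold that binds the SET proteins, was at 150 ± 30.4 against 109 ± 5.24 CPM (0.46 ± 0.18, adjusted p = 0.0933). Under the stricter filter of 10 CPM in 3 libraries it was called (edgeR adjusted p = 0.0416). Mll5 (Kmt2e) is a SET protein with no settled enzymatic activity. It was at 36.4, 44.3 and 54.3 CPM in Lsd1 KO against 24.8, 32.6 and 30.5 CPM in Control. In edgeR it missed the threshold (0.62 ± 0.21, adjusted p = 0.0521). It was called in 5 of the 10 other ways of scaling, filtering or testing, DESeq2's Wald test among them (adjusted p = 0.0379). Without Lsd1 KO replicate 1 edgeR called it as well (0.0464). Of its exon bases 11.7% lie opposite Srpk2. Mll1 (Kmt2a) was scarce, at 2.63 ± 1.59 against 7.95 ± 4.62 CPM (-1.59 ± 0.55, adjusted p = 0.0595). DESeq2's Wald test and edgeR without a filter called it (adjusted p = 0.0210 and 0.0135). With 9 counts in Lsd1 KO replicate 2, Mll1 reached the minimum count of 10 in all 3 libraries only in Control. The lysine monomethyltransferase Setd7 was at 1.52 against 0.777 CPM. Kmt2b, the H3K4 methyltransferase best known in oocytes, is listed as Wbp7 and so is not among the 79; named after its values were seen, it was at 71.2 ± 14.8 CPM in Lsd1 KO against 76.3 ± 20.2 CPM in Control (-0.10 ± 0.23, adjusted p = 0.789).

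H3K9 methyltransferases set the silent mark that JmjC enzymes of the KDM3 and KDM4 families remove. None of the 6 tested genes was called by edgeR, DESeq2 or limma-voom, and 1 had an unadjusted p under 0.05. Of all genes tested, edgeR called 21.3% and gave 35.1% an unadjusted p under 0.05, so a group this small can hold no call. Each had a log2 fold change below 0, from -0.52 to -0.23, with a median of -0.42. Setdb1, which works with the KAP1 repressor at retroelements, was at 142, 160 and 106 CPM in Lsd1 KO against 168, 194 and 223 CPM in Control (-0.52 ± 0.20, edgeR adjusted p = 0.0786). Its groups did not overlap. Suv39h2, which trimethylates H3K9 in heterochromatin, was at 136 ± 9.54 against 167 ± 34.8 CPM (-0.29 ± 0.19, adjusted p = 0.283). Its relative Suv39h1 was at 31.1 ± 1.82 against 40.4 ± 4.69 CPM. Ehmt1 (GLP) was at 23.5 against 33.1 CPM, and its partner in the G9a complex, Ehmt2, at 2.99 against 4.14 CPM. Ehmt1 passed only without Lsd1 KO replicate 2 (adjusted p = 0.0400).

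The 4 core genes of PRC2, the complex that methylates H3K27, included the 3 highest levels per length among the symbol-matched genes. None was called by edgeR, DESeq2 or limma-voom, and none had an unadjusted p under 0.05 in edgeR. With 4 genes, and 21.3% of all genes tested called by edgeR, the absence of a call says little. The 4 log2 fold changes ran from -0.53 to -0.17. Suz12, the scaffold, was at 553, 601 and 504 CPM in Lsd1 KO and 597, 593 and 681 CPM in Control (-0.17 ± 0.17, edgeR adjusted p = 0.488). These ranges overlap. Ezh2, the main catalytic subunit, was at 475, 385 and 331 CPM in Lsd1 KO and 513, 480 and 480 CPM in Control (-0.31 ± 0.18, adjusted p = 0.248). Eed, which binds the trimethylated mark, was at 109 ± 25.0 against 137 ± 3.5 CPM, and the alternative catalytic subunit Ezh1 at 34.9 ± 11.9 against 50.3 ± 9.93 CPM. Per kb of exon Ezh2 exceeded Ezh1 in both genotypes, at 64.1 against 4.70 CPM per kb in Lsd1 KO and at 79.2 against 6.76 CPM per kb in Control.

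H3K36 methyltransferases gave 2 falls among 5 tested genes (40% lower, against 10.3% of all genes tested). Ash1l, a Trithorax-group dimethyltransferase, was at 53.0, 52.5 and 58.9 CPM in Lsd1 KO, against 98.6, 131 and 129 CPM in Control (-1.13 ± 0.18, edgeR adjusted p = 0.00150). Every Lsd1 KO library was below every Control library by a wide margin. Setd2, the main enzyme of H3K36 trimethylation, was at 217, 238 and 205 CPM in Lsd1 KO and 325, 411 and 448 CPM in Control (-0.84 ± 0.18, adjusted p = 0.00644). Its groups were also far apart. On mm9, Ash1l lies on chromosome 3 from 88769734 to 88883295 and Setd2 on chromosome 9 from 110435101 to 110521137, both on the plus strand.

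The NSD enzymes, which make H3K36 dimethylation, did not pass. Nsd1 was at 601, 565 and 453 CPM in Lsd1 KO and 284, 322 and 588 CPM in Control (0.44 ± 0.25, edgeR adjusted p = 0.241). Control replicates 1 and 2 were below all Lsd1 KO libraries, and Control replicate 3 was within their range. Without that library Nsd1 was called higher (adjusted p = 0.0137). Whsc1 (Nsd2) was at 60.9 ± 13.8 against 93.9 ± 21.5 CPM (-0.62 ± 0.23, adjusted p = 0.0674). Among the fits with a library left out it was called only without Control replicate 1 (0.0420). DESeq2's Wald test and edgeR without a filter also called it (adjusted p = 0.0446 and 0.0372). Whsc1l1 (Nsd3) was at 50.6 ± 6.69 against 59.0 ± 9.35 CPM. As a share of the summed NSD level per kb, Nsd1 made up 85.7%, 85.7% and 85.5% in Lsd1 KO, against 74.2%, 72.0% and 79.8% in Control. The shares did not overlap, Control replicate 3 included. The family shares, here and for other families, were chosen after values were seen and were not tested.

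H4K20 and H3K79 methyltransferases gave 1 fall among 3 tested genes (33.3% lower, against 10.3% of all genes tested). Setd8 (Kmt5a), which monomethylates H4K20 and acts in mitosis and replication, was at 67.6, 57.5 and 67.1 CPM in Lsd1 KO and 122, 72.5 and 128 CPM in Control (-0.74 ± 0.22, edgeR adjusted p = 0.0302). Control replicate 2 was close to the Lsd1 KO libraries. Setd8 kept the call only without that library (adjusted p = 0.00971, against 0.0753 to 0.0914 without any other). Dot1l, the H3K79 methyltransferase, was at 30.1 ± 7.52 against 40.3 ± 11.0 CPM, and Suv420h1 (Kmt5b), which adds further methyl groups to H4K20, at 12.3 ± 2.81 against 18.6 ± 4.42 CPM. Its relative Suv420h2 was too scarce to test, with 11, 1 and 8 counts in Lsd1 KO and 9, 30 and 9 counts in Control.

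Of 7 tested arginine methyltransferases 1 passed (14.3%, against 21.3% of all genes tested). Prmt2, a weak type I enzyme known as a nuclear receptor coactivator, was at 28.0, 27.3 and 23.5 CPM in Lsd1 KO and 15.3, 13.1 and 15.0 CPM in Control, a rise of 0.86 ± 0.22 (edgeR adjusted p = 0.0144). The groups were well apart, yet it missed the threshold when Lsd1 KO replicate 1 or Control replicate 2 was left out (0.0579 and 0.0515). Prmt3, a cytosolic enzyme of ribosomal protein methylation, was at 23.1, 18.5 and 15.9 CPM in Lsd1 KO and 23.3, 30.2 and 29.6 CPM in Control (-0.53 ± 0.23, adjusted p = 0.114). Prmt7, the monomethylating enzyme, was at 19.2 ± 0.957 against 27.4 ± 6.93 CPM (-0.51 ± 0.23, adjusted p = 0.139), and passed only without Control replicate 3 (0.0325). Prmt5, which makes symmetric dimethylarginine, was at 21.2 ± 2.21 against 15.9 ± 1.86 CPM (0.41 ± 0.23, adjusted p = 0.214), and Prmt1, the main asymmetric enzyme of most cells, at 9.77 ± 1.78 against 11.8 ± 3.21 CPM.

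The summed PRMT level per kb was nearly the same in both genotypes, at 28.0 ± 1.83 CPM per kb in Lsd1 KO against 27.5 ± 0.581 CPM per kb in Control (SD, n = 3 each). Prmt2 took 29.6% ± 1.94 of that sum in Lsd1 KO and 16.6% ± 1.67 in Control, while Prmt3 took 20.3% ± 2.60 in Lsd1 KO and 30.0% ± 3.59 in Control. The most abundant PRMT transcript per length was therefore Prmt2 in Lsd1 KO and Prmt3 in Control. 

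JmjC demethylases were the largest functional group, with 2 rises and 3 falls among 14 tested genes (35.7% called, against 21.3% of all genes tested). The KDM3 enzymes, which remove methyl groups from H3K9, held the largest fall among the genes that passed. Kdm3b was at 19.0, 14.8 and 12.5 CPM in Lsd1 KO, against 44.6, 44.5 and 40.2 CPM in Control (-1.48 ± 0.21, edgeR adjusted p = 0.000785), 2.79-fold lower in Lsd1 KO. Kdm3a, which is also needed for male germ cell development, was at 5.92, 4.95 and 7.80 CPM in Lsd1 KO and 12.9, 12.8 and 14.2 CPM in Control (-1.10 ± 0.29, adjusted p = 0.0195). Both paralogs were thus separated between genotypes, though Kdm3a missed the threshold when Lsd1 KO replicate 1 or 2 or Control replicate 2 was left out (0.0752, 0.0540 and 0.0506). Their sum per kb was 3.25 ± 0.373 CPM per kb in Lsd1 KO against 8.27 ± 0.164 CPM per kb in Control. Jmjd1c, the third gene of the family, did not pass, at 92.3 ± 7.49 CPM in Lsd1 KO against 83.6 ± 22.8 CPM in Control (0.14 ± 0.21, adjusted p = 0.660).

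The KDM5 enzymes remove H3K4 di- and trimethylation, whereas LSD1 acts on mono- and dimethylated H3K4. Kdm5b was at 19.9, 15.6 and 21.9 CPM in Lsd1 KO and 9.97, 9.25 and 4.15 CPM in Control, a rise of 1.29 ± 0.33 (edgeR adjusted p = 0.0166). Every Lsd1 KO library was above every Control library. The call was lost without Lsd1 KO replicate 1 or 3 (adjusted p = 0.0517 and 0.0592). The X-linked Kdm5c was at 21.7, 17.7 and 17 CPM in Lsd1 KO against 28.4, 32.0 and 30.9 CPM in Control (-0.70 ± 0.20, adjusted p = 0.0299), and lost the call without any of the 3 Lsd1 KO libraries or Control replicate 2 (0.0572 to 0.122). Kdm5a was at 22.1 ± 2.19 against 26.2 ± 7.35 CPM and did not pass. The Y-linked Kdm5d had no count in any library. The summed KDM5 level per kb was 6.66 ± 0.693 CPM per kb in Lsd1 KO against 7.13 ± 0.879 CPM per kb in Control. Kdm5b made up 36.8% ± 3.52 of that sum in Lsd1 KO and 13.9% ± 5.36 in Control, and Kdm5c 39.8% ± 4.4 in Lsd1 KO and 60.4% ± 6.11 in Control (SD, n = 3 each).

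**Figure D3:**
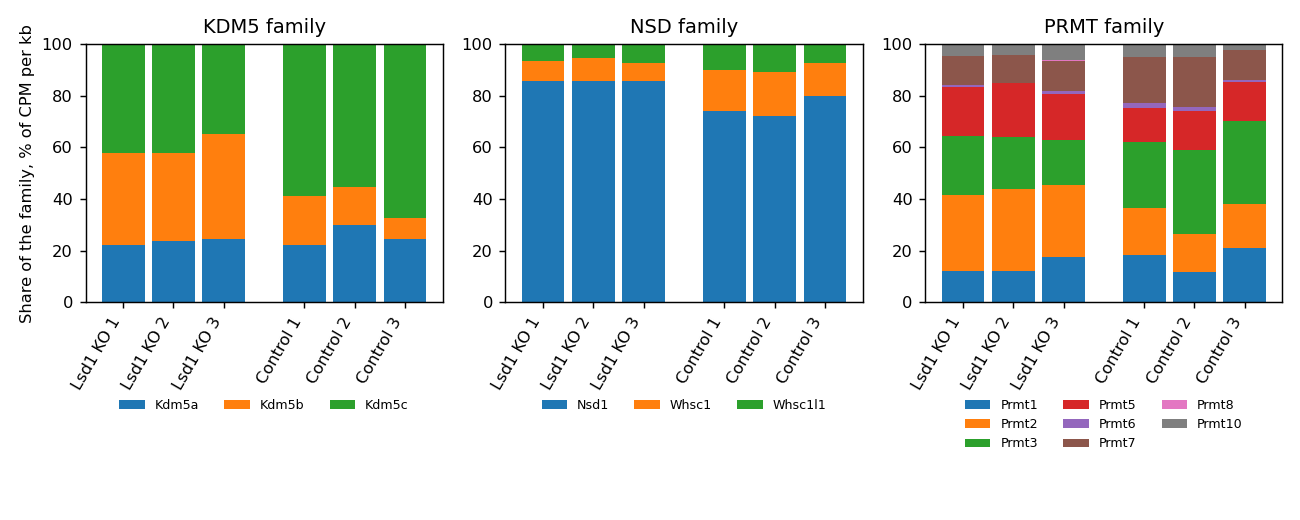
Share of each paralog in the summed level per kb of its family, in percent, for the KDM5, NSD and PRMT families; each stacked bar is 1 library, with Lsd1 KO left of Control. Kdm5b takes 34.1% to 40.8% in Lsd1 KO and 8.26% to 18.9% in Control, Nsd1 85.5% to 85.7% and 72.0% to 79.8%, and Prmt2 27.7% to 31.6% and 14.8% to 18.0%.

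The KDM4 enzymes act on trimethylated H3K9 and H3K36. Kdm4a was at 59.4, 44.3 and 53.2 CPM in Lsd1 KO and 23.3, 35.5 and 38.9 CPM in Control (0.68 ± 0.22, edgeR adjusted p = 0.0455). It kept the call only when Lsd1 KO replicate 2 or Control replicate 3 was left out (up to 0.166 otherwise) and lost it when all libraries were thinned to the smallest total. Kdm4a made up 84.6% of the KDM4 sum per kb in Lsd1 KO (79.6% to 87.7%) and 78.5% in Control (71.6% to 83.5%). These ranges of the shares overlap. Kdm4b, Kdm4c and Kdm4d each averaged 4.32 CPM or less in both genotypes, and none of them passed the threshold.

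The H3K27 demethylases gave no call. Kdm6a (UTX), X-linked and a part of the Mll2 and Mll3 complexes, was at 357, 388 and 333 CPM in Lsd1 KO and 393, 526 and 513 CPM in Control (-0.41 ± 0.18, edgeR adjusted p = 0.120). The groups did not overlap, but the call was not reached in any of the fits. Kdm6b (JMJD3) was at 178, 217 and 195 CPM in Lsd1 KO and 127, 161 and 457 CPM in Control (-0.34 ± 0.37, adjusted p = 0.551). Control replicate 3 alone lay above the Lsd1 KO libraries, and the other two Control libraries below them. Of the H3K36 demethylases, Kdm2b, which recruits a variant Polycomb complex to CpG islands, was at 319 ± 36 against 394 ± 107 CPM, and Kdm2a at 53.8 ± 7.78 against 75.6 ± 23.1 CPM; Kdm2a passed only without Control replicate 1 (adjusted p = 0.0465).

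The 5 remaining JmjC proteins, which are mostly hydroxylases of other proteins, gave no call by edgeR, DESeq2 or limma-voom. None had an unadjusted p under 0.05 in edgeR or DESeq2. Of all genes tested edgeR called 21.3%. Jmjd6, a lysyl hydroxylase of splicing factors, was at 34.4 ± 5.27 CPM in Lsd1 KO against 36.9 ± 1.29 CPM in Control (-0.10 ± 0.19, edgeR adjusted p = 0.743). Jmjd4 was at 2.15 ± 1.42 against 4.05 ± 0.411 CPM, and Jmjd5, Jmjd7 and Jmjd8 averaged 0.679 to 2.69 CPM in both genotypes.

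The SET and SMYD proteins outside these groups gave 1 fall among 8 tested genes (12.5% lower, against 10.3% of all genes tested). Setd5, a SET domain protein whose histone methyltransferase activity is disputed, was at 39.1, 32.9 and 27.7 CPM in Lsd1 KO, against 66.6, 81.0 and 88.7 CPM in Control (-1.24 ± 0.20, edgeR adjusted p = 0.00149). The groups were far apart, and the adjusted p stayed at or below 0.00979 with any library left out. Setd4 was at 249, 201 and 227 CPM in Lsd1 KO and 186, 179 and 131 CPM in Control (0.45 ± 0.19, adjusted p = 0.107). Setd3, which methylates a histidine of actin and is no histone enzyme in that role, was at 96.2 ± 1.55 against 85.7 ± 7.31 CPM (0.17 ± 0.16, adjusted p = 0.499). Smyd3 was at 48.7, 49.5 and 50.8 CPM in Lsd1 KO and 26.9, 27.9 and 55.6 CPM in Control (0.44 ± 0.26, adjusted p = 0.257). Control replicate 3 was above every Lsd1 KO library and the other two Control libraries were below them. Smyd3 was called higher without Control replicate 3 (0.0105). Smyd4 was at 5.15 ± 1.63 against 9.56 ± 2.37 CPM (-0.89 ± 0.35, adjusted p = 0.0916).

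PRDM proteins carry a PR domain related to SET before a row of zinc fingers; few are proven methyltransferases and most act as sequence-specific regulators. Of 10 tested genes 2 rose and 2 fell (40% called, against 21.3% of all genes tested). Prdm1 (BLIMP1), the repressor that specifies primordial germ cells, was at 91.9, 94.6 and 64.2 CPM in Lsd1 KO and 28.2, 32.9 and 40.9 CPM in Control, a rise of 1.30 ± 0.22 (edgeR adjusted p = 0.00179). Every Lsd1 KO library was above every Control library. BLIMP1 is also a gene of plasma cells and macrophages. Across Lsd1 KO replicates 1 to 3 the immune marker sums were 136, 8.47 and 107 CPM and Prdm1 91.9, 94.6 and 64.2 CPM. Across Control replicates 1 to 3 the sums were 30.1, 4.29 and 40.6 CPM and Prdm1 28.2, 32.9 and 40.9 CPM. The part of immune cells in the rise of Prdm1 was not tested. Prdm9, the H3K4 and H3K36 methyltransferase that places meiotic recombination hotspots, was at 4.16, 3.06 and 4.21 CPM in Lsd1 KO and 1.11, 1.20 and 0.631 CPM in Control (1.94 ± 0.51, adjusted p = 0.0185). Those levels rest on 52, 34 and 47 counts in Lsd1 KO and 12, 16 and 7 counts in Control. With Control replicate 3 below the minimum count of 10, Prdm9 passed the filter only through its Lsd1 KO libraries. Under the stricter filter of 10 CPM in 3 libraries it was not tested. The groups did not overlap. Prdm9 missed the threshold when Lsd1 KO replicate 1 or 3 or Control replicate 1 was left out (0.0529 to 0.0722).

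Prdm6, a repressor known from smooth muscle, was at 21.9, 22.9 and 19.9 CPM in Lsd1 KO and 41.2, 50.4 and 33.9 CPM in Control (-0.96 ± 0.21, edgeR adjusted p = 0.00707). Prdm4, a regulator that binds PRMT5 in neural progenitors, was at 52.4, 65.6 and 48.7 CPM in Lsd1 KO and 73.8, 104 and 86.1 CPM in Control (-0.66 ± 0.20, adjusted p = 0.0307), and missed the threshold when Lsd1 KO replicate 1 or 3 or Control replicate 2 was left out (0.130 to 0.141). Both genes were separated between the genotypes in all libraries. Prdm2 (RIZ1), the highest PRDM gene per kb in both genotypes, was at 175 ± 21.5 against 198 ± 65.5 CPM and did not pass (adjusted p = 0.614). Prdm16 was at 17.7 ± 6.20 against 29.0 ± 2.38 CPM (-0.71 ± 0.27, adjusted p = 0.0800).

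The 8 untested members were Kdm5d, Prdm8, Prdm11, Prdm12, Prdm14, Prmt8, Smyd1 and Suv420h2. Kdm5d, Prdm8, Prdm11 and Prmt8 had 5 counts or fewer in all 6 libraries together. Prdm14, which with Prdm1 directs germ cell specification in the embryo, had 3, 4 and 3 counts in Lsd1 KO and 2, 0 and 0 counts in Control.

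**Figure D4:**
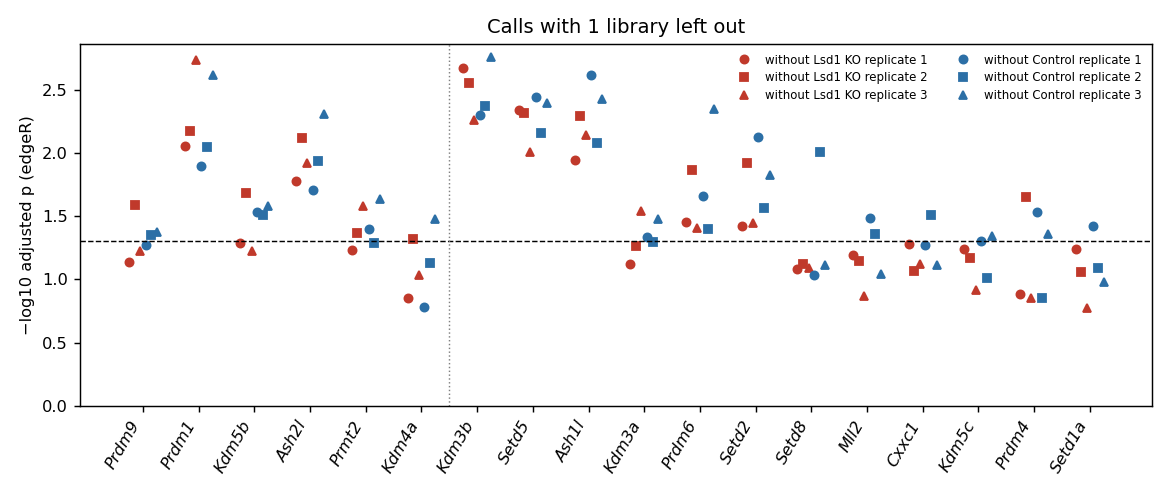
Edge of each call: −log10 of edgeR's adjusted p for the 18 called genes when each of the 6 libraries is left out, with rises left of the dotted line; the dashed line is the threshold of 0.05. Prdm1, Ash2l, Kdm3b, Setd5, Ash1l, Prdm6 and Setd2 stay above the line in all 6 fits, and Setd8, Cxxc1 and Setd1a are above it in 1.

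Levels per length were compared between genes as CPM per kb of exon. Suz12, Ezh2 and Eed were the 3 highest in both genotypes, at 112, 64.1 and 49.4 CPM per kb in Lsd1 KO and 126, 79.2 and 61.6 CPM per kb in Control. Setd2 was the fourteenth in Lsd1 KO, at 20.9 ± 1.59 CPM per kb, and the eighth in Control, at 37.5 ± 6.00 CPM per kb. Setd4 was the fourth in Lsd1 KO, at 48.0 ± 5.15 CPM per kb, and the tenth in Control, at 35.2 ± 6.43 CPM per kb. The median coefficient of variation of the 71 genes was 17.1% in Lsd1 KO and 19.6% in Control, close to the 18.3% and 21.4% of all genes tested.

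Transcript length moved with the fold change across all genes. The median log2 fold change was 0.14 for genes under 2 kb of exon, 0.03 at 2 to 4 kb, -0.07 at 4 to 6 kb, -0.09 at 6 to 8 kb and -0.16 above 8 kb. Methylation enzymes are long, with a median exon length of 5.82 kb among the 69 tested members with a position, against 3.68 kb for all genes tested. Within the same bins their own medians were 0.06 for 14 members at 2 to 4 kb, -0.26 for 20 at 4 to 6 kb, -0.49 for 17 at 6 to 8 kb and -0.60 for 17 above 8 kb. No member above 8 kb was higher and 4 were lower (Setd5, Ash1l, Setd2 and Mll2), where 7.47% of all genes of that length were higher and 14.3% lower. With the per-library correction for length and GC content, 7 of 69 members were higher and 10 lower, against 1224 and 1472 of 12503 genes. Mll2 and Setd1a lost the call and Mll5 gained it (edgeR adjusted p = 0.0415). The median was -0.31 for the members against -0.07 for all genes.

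**Figure D5:**
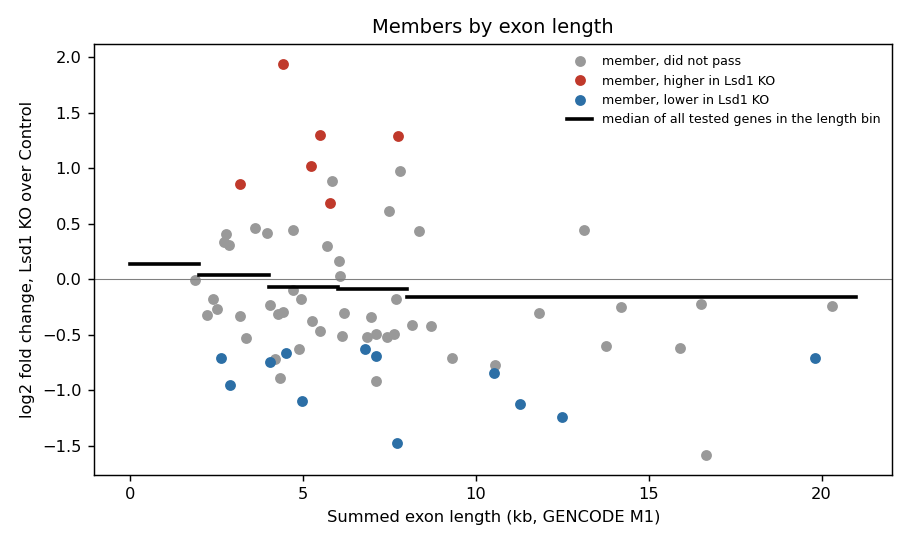
Log2 fold change (Lsd1 KO over Control) of 68 tested members against summed exon length in kb; colour marks the call and black bars give the median of all tested genes in each length bin. The bars go down from 0.14 to -0.16. The 4 called members longer than 8 kb were all called lower, which by itself places them below the bars.

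Other genes of histone methylation that the symbols did not cover were listed by role: COMPASS and PRC2 subunits, further demethylases, cofactors, readers of methyl-lysine and enzymes of the S-adenosylmethionine cycle. Of 46 tested, 2 were higher and 6 lower including Kdm1a (17.4%, against 21.3% of all genes). Dpy30, the COMPASS core subunit that binds ASH2L, was at 307, 281 and 357 CPM in Lsd1 KO against 148, 120 and 234 CPM in Control, a rise of 0.91 ± 0.23 (edgeR adjusted p = 0.0159). Like that of Ash2l, its lowest Lsd1 KO library was above its highest Control library, but the call was lost without Control replicate 1 or 2 (adjusted p = 0.0743 and 0.0602) and after the length and GC correction (0.0652). Jarid2, which brings PRC2 to chromatin, was at 97.3, 149 and 97.8 CPM in Lsd1 KO and 155, 208 and 235 CPM in Control (-0.80 ± 0.22, adjusted p = 0.0225). Phf1, a Polycomb-like PRC2 accessory protein, was at 92.4 ± 1.77 against 63.9 ± 7.11 CPM, a rise of 0.53 ± 0.17 (adjusted p = 0.0416).

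The other falls were in Ahcyl1, a relative of the enzyme that clears S-adenosylhomocysteine (-0.95 ± 0.19, edgeR adjusted p = 0.00543), the Polycomb reader Cbx2 (-0.76 ± 0.19, adjusted p = 0.0151), the H3K4 trimethyl reader Taf3 (-0.67 ± 0.20, adjusted p = 0.0343) and the demethylase Jhdm1d, now Kdm7a (-0.61 ± 0.19, adjusted p = 0.0388). Ahcyl1, at 37.0 ± 3.26 CPM in Lsd1 KO against 71.5 ± 13.1 CPM in Control, held its call with any library left out. The calls of Jarid2 and Jhdm1d were lost without Lsd1 KO replicate 1 or 3 or Control replicate 2 or 3, those of Cbx2 without Lsd1 KO replicate 1 or 3 or Control replicate 2, that of Taf3 with every library left out except Control replicate 1, and that of Phf1 with every library left out except Control replicate 3 (adjusted p up to 0.117, 0.173, 0.0887, 0.114 and 0.140). Jhdm1d and Phf1 also lost the call after the length and GC correction. The arginine methyltransferase Carm1, the flavin demethylase Kdm1b and the COMPASS subunit Rbbp5 did not pass.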

How the data were processed

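Reads were counted per gene symbol by the authors and deposited as raw counts, 1 column per sample, all of them whole numbers. Per the submitters' processing notes, mm9, HTSeq 0.5.3p9, TopHat2 2.0.7 and CASAVA 1.8.2 were used; options, annotation and strand setting were not stated there. Per the labels, RNA was amplified with a NuGEN Ovation kit before paired-end TruSeq libraries. Amplification and unstated strand handling can affect levels of antisense and overlapping genes.

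Low genes were dropped with filterByExpr (minimum count 10); the rest were scaled by TMM and tested with edgeR 4.0.16 in R 4.3.3 (quasi-likelihood, two-sided, Benjamini-Hochberg over 12935 genes). Replicates were taken as independent. SE was the fold change over the root of the test statistic. DESeq2 1.42.0 and limma 3.58.1 were alternatives. Lengths, GC and positions came from GENCODE release M1 on NCBIM37 (mm9). The test was checked on simulated counts. The rule for named genes took every member past the threshold or with unadjusted p under 0.05, and called partner genes. It also took the 2 others of each role with the highest Control level. Further members, such as Kdm6b, Eed, Prmt1, Ehmt1, Kdm2a and Smyd3, are given outside that rule. The members and lists were chosen with earlier results of these data known. Values of 1 tested member are not reported here.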

Additional observations from a re-analysis of the deposited data

How the results depend on the processing

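Scaling, filter and test changed few calls: with DESeq2 size factors, upper-quartile scaling, library totals, DESeq2's Wald test, limma-voom, thinning, a stricter filter (10 CPM in 3 libraries) or none, and the length and GC correction, 5 to 7 methylation genes were higher and 10 to 14 lower. Over all genes those settings gave 1175 to 1682 higher and 1016 to 1572 lower, of 8267 to 18946 tested. Leaving out 1 library gave 3 to 9 methylation genes higher and 5 to 12 lower. For the other methylation genes it gave 0 to 2 higher and 2 to 6 lower. For all genes it gave 932 to 1466 higher and 638 to 1346 lower. At an adjusted p under 0.01 the counts were 2 and 5, then 0 and 2, then 676 and 497. With at least a 2-fold change they were 4 and 4, then 0 and 1, then 945 and 625. For the other methylation genes the number higher was 1 without a filter and 0 after the length and GC correction; edgeR gave 5 of them an unadjusted p under 0.05 and a value above 0, and DESeq2 and limma-voom called 2. Prdm2 ran from -0.35 without Control replicate 1 to 0.12 without Control replicate 3, where its sign turned. In no other alternative did any of the 53 genes checked for their sign change it. Other genes given above, such as Kdm6b, were not checked.

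Samples with the same replicate number deviated together with r = -0.03, 0.11 and -0.02 across genes, so the numbers were not taken as pairs. With a replicate block, 5 methylation genes were higher and 10 lower, 1 and 4 of the other methylation genes, and 1270 and 1098 of all genes; Kdm4a, Kdm5c, Mll2 and Setd1a lost the call and Mll1 gained it. Why these calls moved was not tested. With 3 samples per genotype and a common biological coefficient of variation of 27.2%, a p above the threshold does not show that a gene did not differ.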
